A study of Mus musculus with 16 samples.

Results

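Glutathione transferases join the tripeptide glutathione to electrophilic compounds, so that drugs, epoxides and the aldehydes of lipid peroxidation can be carried out of the cell. The cytosolic enzymes fall into classes named by Greek letters, among them alpha, mu and pi, whose genes lie in clusters and are close in sequence. In liver, transcription of many of them is known to respond to the transcription factor NRF2 and to nuclear receptors that sense foreign compounds, and the pi class of mouse liver is known for higher levels in males.

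The 10 glutathione transferase genes described here are the pi class genes Gstp1 and Gstp2, the mu class genes Gstm1, Gstm2, Gstm3, Gstm4 and Gstm6, and the alpha class genes Gsta2, Gsta3 and Gsta4. They were chosen by name, with earlier results of these data known. They were found through their Ensembl identifiers among the 25006 genes of the count table. All 10 passed the filter on low counts that left 13180 genes. Liver RNA came from C57BL/6 mice, an inbred laboratory strain, that drank water with or without antibiotics and received 1 gavage of fast food or chow slurry, with livers taken after 4 h. The groups of 4 libraries each were fast food with antibiotic water, chow with antibiotic water, fast food with control water and chow with control water, called below fast food-antibiotic, chow-antibiotic, fast food-control and chow-control. The labels name neither the antibiotics nor the make-up of the slurries, and give no age or sex of the mice. The labels do not say that each replicate is a separate mouse, in which case p-values measure only the spread between these samples.

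Libraries held 8954378 to 18954655 counts. The 4 features that collect ribosomal RNA-like (rRNA-like) reads took under 1% of counts in 9 libraries, and 2.45% to 8.42% in fast food-antibiotic replicates 1, 2 and 4, chow-antibiotic replicates 2 and 4, and chow-control replicates 1 and 2. Each comparison is therefore also given within libraries of low or high share where both groups had at least 2. Hepatocyte markers were high everywhere, with Alb between 54700 and 166000 CPM (counts relative to the library size, corrected by TMM factors). Y-linked Ddx3y stood at 128 to 230 CPM in every library and Xist at 0.0535 to 1.42 CPM, the pattern of male tissue in every group. The acute phase transcripts Saa1, Saa2, Orm2 and Lcn2 summed to 3582 CPM in fast food-antibiotic replicate 2, 3174 CPM in chow-antibiotic replicate 4 and 712 CPM in chow-control replicate 2, against 24.2 to 238 CPM in the other 13 libraries, and results that change without these 3 are given with and without them.

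Sequence decides how well reads of 50 bases can be told apart between these genes. The coding sequences of Gstp1 (chr19:4035407-4037985, minus strand, GRCm38) and Gstp2 (chr19:4040285-4046023, minus strand) are both 633 bases long, are identical at 621 positions (98.1%), and share an unbroken identical run of 303 bases. The first 60 coding bases hold 6 of the 12 differences, and reads from other stretches can tell the pair apart as well. This stretch is shown here with the differences in capitals, 5′ to 3′, from the GENCODE M21 transcripts.
Gstp1: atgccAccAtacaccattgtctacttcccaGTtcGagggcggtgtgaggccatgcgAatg
Gstp2: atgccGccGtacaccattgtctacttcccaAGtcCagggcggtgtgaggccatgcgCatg

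Of all 50-base windows in Gstp1 transcripts, 66.3% occurred in no transcript of another gene, and 33.7% also occurred in Gstp2. Gstp2 had 45.7% of its windows to itself. Among the mu genes of chromosome 3 the unique share was 81.1% for Gstm1, 94.3% for Gstm2, 71.2% for Gstm3, 100% for Gstm4 and 94.0% for Gstm6. Of the alpha genes, Gsta2 on chromosome 9 had 50.2%, with 36.0% also occurring in Gsta1, while Gsta3 on chromosome 1 had 99.7% and Gsta4 on chromosome 9 had 100%. How the counting treated a read that matches several genes is not known from these sources, so the counts of Gstp1, Gstp2, Gstm1, Gstm3 and Gsta2 are the least certain.

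**Figure D1:**
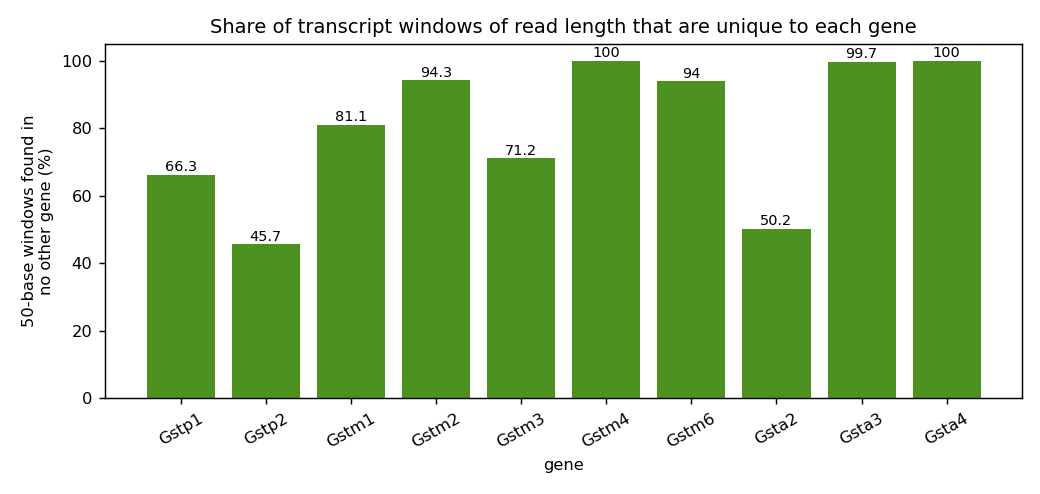
Share of 50-base windows (vertical axis, percent) of each gene's annotated transcripts that occur in no transcript of another gene, one bar per gene. Gstp2 at 45.7% and Gsta2 at 50.2% are lowest, and Gstm4 and Gsta4 stand at 100%.

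Promoters are shown for Gstp1, Gstm3 and Gstm1, the genes that the meal lowered in control water, since they were compared for a shared motif. Each window runs from 250 bases before to 50 bases after the RefSeq start site (GRCm38.p6, minus strand, written 5′ to 3′ in the direction of the gene). Capitals mark matches to TGANNNNGC on either strand, where N is any base. This is a loose form of the core of the antioxidant response element, the motif bound by NRF2. A match therefore need not be such an element. The windows are chr19:4037863-4038162 for Gstp1, chr3:107969125-107969424 for Gstm3 and chr3:108017769-108018068 for the downstream of the 2 Gstm1 start sites.
Gstp1: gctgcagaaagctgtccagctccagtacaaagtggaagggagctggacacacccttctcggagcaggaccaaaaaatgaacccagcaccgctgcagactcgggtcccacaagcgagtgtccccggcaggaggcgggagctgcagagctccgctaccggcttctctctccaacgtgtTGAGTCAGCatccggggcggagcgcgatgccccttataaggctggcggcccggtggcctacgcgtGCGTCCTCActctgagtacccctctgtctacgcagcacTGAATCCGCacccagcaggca
Gstm3: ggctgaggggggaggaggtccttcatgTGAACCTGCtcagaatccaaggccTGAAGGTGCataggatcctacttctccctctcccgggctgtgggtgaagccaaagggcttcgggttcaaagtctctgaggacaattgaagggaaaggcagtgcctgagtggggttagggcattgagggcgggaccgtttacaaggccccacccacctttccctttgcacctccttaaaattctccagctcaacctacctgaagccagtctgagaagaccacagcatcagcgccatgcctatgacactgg
Gstm1: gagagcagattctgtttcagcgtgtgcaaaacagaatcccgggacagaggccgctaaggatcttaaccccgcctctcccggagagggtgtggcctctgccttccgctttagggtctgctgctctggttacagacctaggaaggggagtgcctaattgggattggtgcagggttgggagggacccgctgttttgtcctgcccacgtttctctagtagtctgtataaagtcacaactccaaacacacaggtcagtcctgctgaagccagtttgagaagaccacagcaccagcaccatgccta

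Gstp1 held 3 matches, the first of which began 74 bases before the start site (TGAGTCAGC), Gstm3 held 2 and Gstm1 none at either start site. RefSeq promoters matched 9 of the 10 genes, and 5 of them held the letters: Gstp1, Gstp2, Gstm3, Gstm4 and Gsta3. The same letters occurred in 41.3% of all 32851 promoter records of this length. The TATA box letters TATAAA occurred in 2 of the 9 genes, Gstm1 among them, and in 13.6% of all promoter records. They overlapped no match of the first motif in these genes. The 9 genes had 13 records, and a gene was counted if any of its records matched. Counts by gene and shares of records are therefore unlike measures. A match is a description of the letters in the window only.

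Levels between genes were compared as CPM per kilobase of merged exons. This length was 4344 bases for Gsta3, whose coding sequence has 666, and 1113 (Gstp2) to 1989 bases (Gstm6) for the others. Which transcript forms these livers used was not measured. If they were shorter than the merged exons, the level of Gsta3 is set too low, so its place in each group depends on this length. Gstp1 led in the chow-control group at 480 ± 74.8 CPM per kilobase (SD, n = 4), followed by Gstm1 at 293 ± 56.6, Gsta3 at 125 ± 31.1, Gsta4 at 37.4 ± 10.1 and Gstm4 at 14.1 ± 2.15 CPM per kilobase. Gstm6 (9.35 ± 2.13), Gstm2 (6.51 ± 1.29) and Gsta2 (6.46 ± 1.66) followed, and Gstm3 (2.94 ± 1.41) and Gstp2 (0.576 ± 0.391) were lowest. Compared within each library, Gstm6 was above both Gstm2 and Gsta2 in all 4 chow-control libraries. Gstm2 and Gsta2 did not differ beyond their spread, and their order changed between libraries. The order at the top was another one in the other 3 groups, where Gstp1 no longer had the highest mean. Gstm1 (186 ± 8.47) and Gsta3 (174 ± 69.9) were within their spread in the fast food-antibiotic group, and likewise Gstm1 (231 ± 13.9) and Gsta3 (215 ± 20.1) in the chow-antibiotic group, with Gstp1 at 102 ± 40.6 and 109 ± 27.0 CPM per kilobase in these groups. In the fast food-control group Gsta3 averaged 167 ± 16.9, Gstp1 142 ± 46.5 and Gstm1 141 ± 16.8. Library by library, replicates 1 to 4, Gsta3 (183, 179, 150 and 155) was always above Gstm1 (160, 148, 130 and 124). The place of Gstp1 (205, 108, 147 and 107) changed between libraries.

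**Figure D2:**
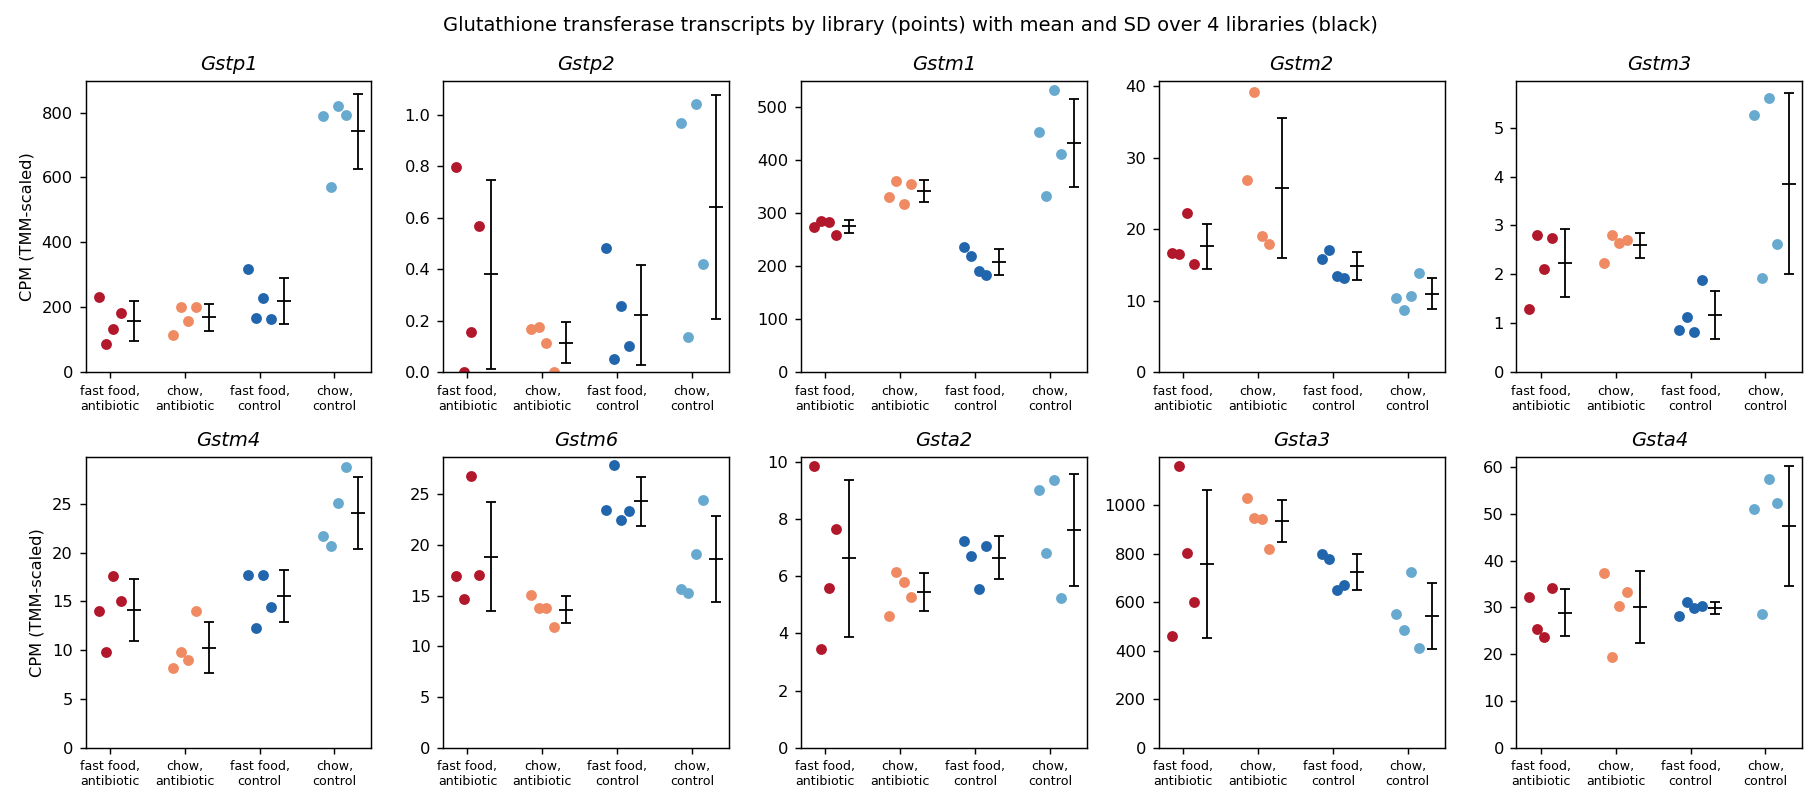
CPM of each gene (vertical axis, one panel per gene, from 0) in the 4 libraries of each group (coloured points), with mean and SD over 4 libraries in black. The 4 chow-control libraries hold 571 to 819 CPM of Gstp1, above the other 12 libraries at 85.4 to 318 CPM, while Gsta3 is lowest on average in chow-control.

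The first comparison asks what a fast food meal did to these transcripts in mice with control water. After 4 h the most abundant pi and mu genes, Gstp1 and Gstm1, and the rare Gstm3 were lower after fast food than after chow, and no gene of the 10 rose past the threshold of an adjusted p of 0.05. The call covered 3 of 10 genes, where 0.577% of all genes tested were called in this comparison, 0.334% lower and 0.243% higher. The 10 were chosen with earlier results known, so no excess over all genes can be read from these shares. Of 15 other listed transferases and relatives tested, 0 were called. The median log2 fold change of the 10 genes was -0.65, beside -0.02 over all genes tested. For 4 of the 10, the 3 called genes and Gstm4, the groups did not overlap, as they did not for 10.3% of all genes.

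Gstp1, the main pi class transferase of mouse liver, stood at 318, 167, 228 and 165 CPM in fast food-control libraries 1 to 4, against 789, 571, 819 and 794 CPM in chow-control libraries 1 to 4. Every fast food library was below every chow library, although chow-control replicate 2 lay apart from the other three of its group. The log2 fold change was -1.76 ± 0.29 (SE; edgeR adjusted p = 0.016). Its near-identical neighbour Gstp2 reached only 0.482, 0.0492, 0.255 and 0.102 CPM in fast food-control and 0.966, 0.137, 1.04 and 0.418 CPM in chow-control libraries, and the groups overlapped (log2 fold change -1.50 ± 0.76, edgeR adjusted p = 0.477). Gstp2 had at most 21 counts in a library and never more than 0.344% of the Gstp1 count. Per 1000 windows unique to the gene, Gstp1 averaged 280 CPM over the 16 libraries and Gstp2 0.622 CPM. With counts summed over the Gstp cluster, Gstp3 included, the log2 fold change was -1.75 ± 0.28 (edgeR adjusted p = 0.0122).

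Gstm1, the most abundant mu class transferase here, stood at 236, 218, 191 and 183 CPM in fast food-control libraries, against 453, 331, 531 and 410 CPM in chow-control libraries. The groups were well apart, with the lowest chow library again replicate 2. Its log2 fold change of -1.06 ± 0.13 had rank 2 by p among the 13180 genes (edgeR adjusted p = 0.00179). Gstm3, a mu class gene of low level, stood at 0.856, 1.13, 0.816 and 1.88 CPM in fast food-control and 5.26, 1.92, 5.60 and 2.61 CPM in chow-control libraries. The highest fast food library and the lowest chow library nearly met, and counts were few, 13 to 113 over the 16 libraries. Its log2 fold change was -1.70 ± 0.36 (edgeR adjusted p = 0.0409). Counts summed over Gstm1 to Gstm7 gave -0.84 ± 0.12 (edgeR adjusted p = 0.00593). Such a sum holds reads that were counted for a neighbour, but not reads that the counting may have left out.

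The other mu genes did not pass. Gstm4 stood at 17.7, 12.3, 17.7 and 14.4 CPM in fast food-control and 21.7, 20.7, 25.1 and 28.8 CPM in chow-control libraries, without overlap, but missed the threshold over all genes (log2 fold change -0.63 ± 0.19, edgeR adjusted p = 0.154). Gstm2 had 13.1 to 17.1 CPM in fast food-control and 8.72 to 13.9 CPM in chow-control libraries (0.44 ± 0.22 on the log2 scale), and Gstm6 had 22.5 to 27.9 and 15.2 to 24.4 CPM in the same groups (0.38 ± 0.18). Both pairs of groups overlapped, by 1 chow library in each case.

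The alpha genes did not pass either. Gsta3, the most abundant alpha class transcript, stood at 797, 776, 650 and 672 CPM in fast food-control and 550, 483, 726 and 410 CPM in chow-control libraries, with chow-control replicate 3 inside the fast food range (log2 fold change 0.42 ± 0.22, edgeR adjusted p = 0.511). Gsta4, whose enzyme conjugates the lipid peroxidation product hydroxynonenal, stood at 28.3, 31.2, 29.8 and 30.4 CPM in fast food-control and 51.0, 28.6, 57.5 and 52.3 CPM in chow-control libraries. Only chow-control replicate 2 overlapped the fast food group (-0.66 ± 0.20 on the log2 scale, edgeR adjusted p = 0.173). Gsta2 had 5.56 to 7.22 CPM in fast food-control and 5.23 to 9.37 CPM in chow-control libraries, overlapping widely.

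The rRNA-like share was low throughout the fast food-control group and in chow-control replicates 3 and 4. Within these 6 and the other low-share libraries the log2 fold changes were -1.88 ± 0.27 for Gstp1, -1.19 ± 0.13 for Gstm1 and -1.81 ± 0.37 for Gstm3 (edgeR adjusted p = 0.0253, 0.00231 and 0.0405). Gstm4 (-0.80 ± 0.15) and Gsta4 (-0.88 ± 0.11) were then called too, and both were also called without the 3 acute phase libraries (edgeR adjusted p = 0.0234 and 0.0230). With the split into low and high share as a term in the fit of all 16 libraries, Gstm1 was called (-1.09 ± 0.14, edgeR adjusted p = 0.00293), while Gstp1 (-1.67 ± 0.31, 0.0514) and Gstm3 (-1.70 ± 0.38, 0.0927) were not. With the share itself as a term Gstp1 was called (0.0460) and Gstm3 was not (0.0998). Gstm1 kept its call without each library in turn. Gstp1 lost it without fast food-control replicate 2, 3 or 4 or chow-control replicate 1 or 3 (edgeR adjusted p up to 0.0775, log2 fold change -1.78 to -1.65). Gstm3 lost it without fast food-control replicate 1, 2 or 3, chow-control replicate 1 or 3, or chow-antibiotic replicate 1 or 2 (edgeR adjusted p up to 0.145, log2 fold change -1.70 to -1.44).

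Of 8 hepatocyte and 8 Kupffer cell markers none was called in this comparison by edgeR or DESeq2, with 2 and 0 at an unadjusted p under 0.05. Markers of pericentral hepatocytes, the cells around the central vein, summed to 14120 to 16210 CPM in fast food-control and 8589 to 11510 CPM in chow-control libraries, without overlap. Most of these sums was 1 gene, Cyp2e1, at 10720 ± 635.5 CPM in fast food-control and 6629 ± 880.2 CPM in chow-control libraries (SD, n = 4 each). Of these 12 markers edgeR called 1 higher, beside 0.577% of all genes, and DESeq2 called 4, with 5 at an unadjusted p under 0.05. Their part in the transferase results was not tested.

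**Figure D3:**
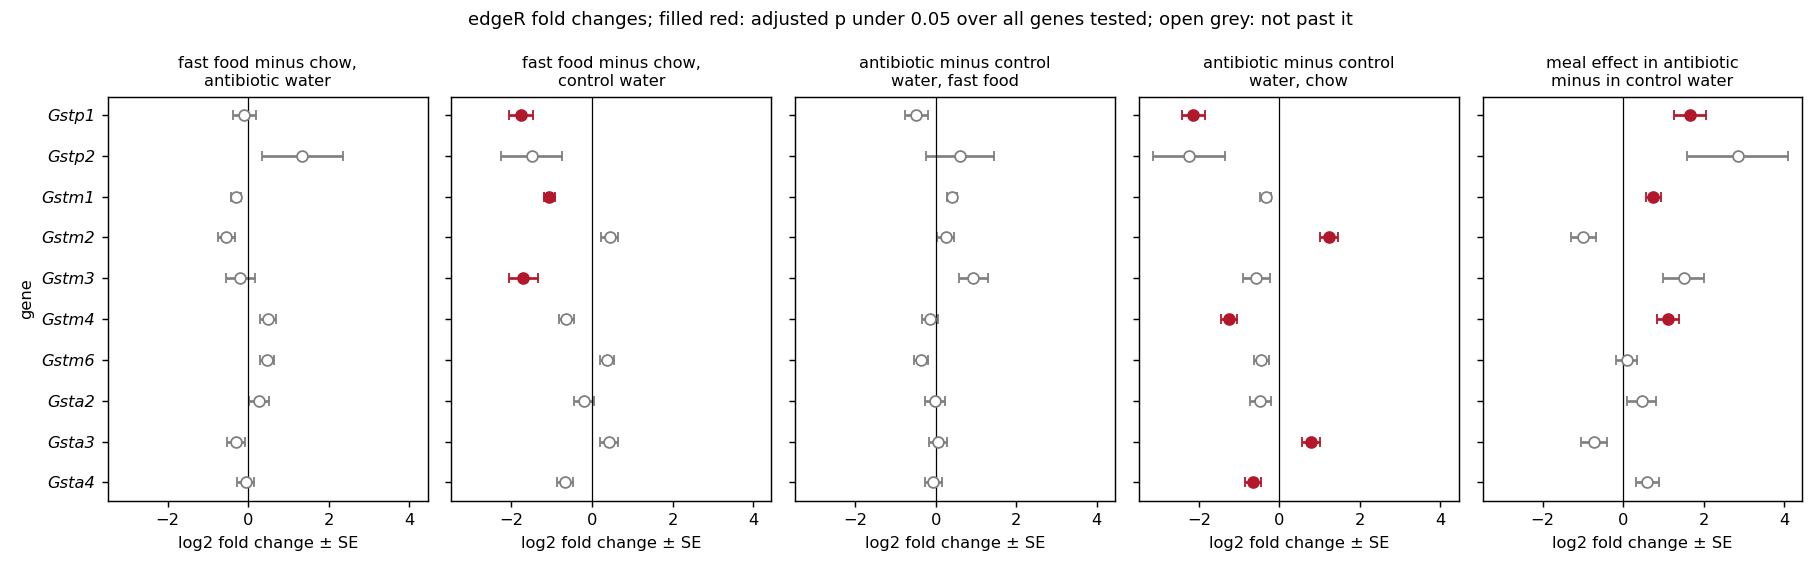
Log2 fold change with SE (horizontal axis) of the 10 genes in each of the 4 comparisons of 2 groups and in the interaction, the group named first in the panel title minus the second. Filled red points passed an edgeR adjusted p of 0.05 over all genes tested: 3 genes for the meal in control water, 5 for antibiotics with chow, 3 for the interaction and none in the other 2 panels.

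The second comparison asks what antibiotic water did in mice given chow. It moved these transcripts apart: Gstp1, Gstm4 and Gsta4 fell, while Gstm2 and Gsta3 rose. This was 5 of 10 genes, against 23.8% of all genes tested in this comparison, 13.2% lower and 10.6% higher. The median of the 10 was -0.52 on the log2 scale and -0.01 over all genes. The groups did not overlap for 5 of the 10, against 24.8% of all genes. These chow-control libraries are the same as in the meal comparison, so the 2 sets of values are not independent.

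Gstp1 stood at 114, 202, 158 and 202 CPM in chow-antibiotic libraries, against 571 to 819 CPM in chow-control libraries. The groups lay far apart, with all 4 antibiotic libraries below every control. The log2 fold change was -2.14 ± 0.29 (edgeR adjusted p = 0.000198), and it was called without each library in turn. Gstp2 stood at 0.167, 0.175, 0.115 and 0 CPM in chow-antibiotic libraries, the last with a count of 0, which allows up to 0.426 CPM at 3 counts. Its groups overlapped through chow-control replicate 2, and it missed the threshold (-2.23 ± 0.89 on the log2 scale, edgeR adjusted p = 0.0784). Without fast food-antibiotic replicate 2 or chow-control replicate 2 its adjusted p was 0.0461 and 0.0416.

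Gstm4 was at 8.17, 9.81, 8.94 and 14.1 CPM in chow-antibiotic libraries and 20.7 to 28.8 CPM in chow-control libraries, with a wide gap between the groups (log2 fold change -1.26 ± 0.20, edgeR adjusted p = 0.000377). Gstm2 moved the other way and was at 26.9, 39.2, 19.1 and 17.9 CPM in chow-antibiotic libraries and 8.72 to 13.9 CPM in chow-control libraries. All 4 antibiotic libraries were above all 4 controls, with replicate 2 farthest (log2 fold change 1.23 ± 0.22, edgeR adjusted p = 0.000973), and both Gstm4 and Gstm2 were called without each library in turn. Gstm1 (317 to 361 CPM in chow-antibiotic, 331 to 531 CPM in chow-control) missed the threshold at -0.34 ± 0.13 (edgeR adjusted p = 0.0633) and passed it without chow-control replicate 2 (0.0136). Gstm3 (2.22 to 2.80 and 1.92 to 5.60 CPM in these groups) overlapped and did not pass. Gstm6 (11.9 to 15.1 CPM in chow-antibiotic, 15.2 to 24.4 CPM in chow-control) did not overlap but missed the threshold at -0.45 ± 0.18, and passed it without fast food-antibiotic replicate 3 (adjusted p 0.0823 with all libraries and 0.0372 without).

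Gsta3 stood at 1029, 945, 944 and 818 CPM in chow-antibiotic libraries and 410 to 726 CPM in chow-control libraries, without overlap (log2 fold change 0.78 ± 0.22, edgeR adjusted p = 0.0185). Leaving out chow-control replicate 4 moved the adjusted p to 0.0527. Gsta4 stood at 37.3, 19.4, 30.3 and 33.4 CPM in chow-antibiotic libraries and 28.6 to 57.5 CPM in chow-control libraries, overlapping through chow-control replicate 2. It fell by 0.65 ± 0.21 on the log2 scale (edgeR adjusted p = 0.0292), and lost the call without chow-antibiotic replicate 2 or 3 or chow-control replicate 1, 3 or 4 (adjusted p 0.0575 to 0.0946, log2 fold change -0.66 to -0.49). Gsta2 (4.61 to 6.13 CPM in chow-antibiotic, 5.23 to 9.37 CPM in chow-control) overlapped and did not pass. Summed by cluster, the log2 fold changes were -2.11 ± 0.28 for Gstp (edgeR adjusted p = 0.00017), -0.28 ± 0.12 for Gstm (0.109) and 0.70 ± 0.21 for Gsta (0.0248).

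Within low-share libraries the 5 called genes kept direction and call, with log2 fold changes of -2.57 ± 0.34 for Gstp1, -1.66 ± 0.19 for Gstm4, -0.71 ± 0.13 for Gsta4, 0.89 ± 0.20 for Gstm2 and 0.79 ± 0.23 for Gsta3. In high-share libraries, 2 a group, the values were -1.73 ± 0.43, -0.82 ± 0.27, -0.58 ± 0.34, 1.62 ± 0.35 and 0.79 ± 0.41 in the same order. None of the 10 passed there (edgeR adjusted p = 0.124, 0.178, 0.392, 0.105 and 0.336), and 3 genes of all those tested did.

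Markers of liver cell types moved in the same comparison, and their part in these results was not tested. Of 8 hepatocyte markers 5 rose with antibiotics and none fell, beside 23.8% of all genes called. Their summed level ran from 185000 to 249100 CPM in chow-antibiotic and 119800 to 150500 CPM in chow-control libraries. On average most of it was Alb, at 142800 ± 26370 and 77540 ± 10920 CPM in these groups. Of 8 Kupffer cell markers 6 fell, with summed levels of 158 to 191.5 CPM in chow-antibiotic and 228 to 658 CPM in chow-control libraries. None of these 16 markers was at 0 in any library. Stellate cell markers fell in 4 of 8 cases, sinusoidal endothelial markers in 2 of 8 and cholangiocyte markers in 1 of 5 tested. Of 6 listed lymphocyte markers only 2 passed the filter on low counts, and both fell. No listed lymphocyte marker had more than 25 counts in a library, so these 2 do not stand for lymphocytes as a whole. Of 12 pericentral hepatocyte markers 4 rose and 3 fell, and of 10 periportal ones 3 rose and none fell. In bulk liver, fewer cells of a type and less RNA per cell cannot be told apart.

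**Figure D4:**
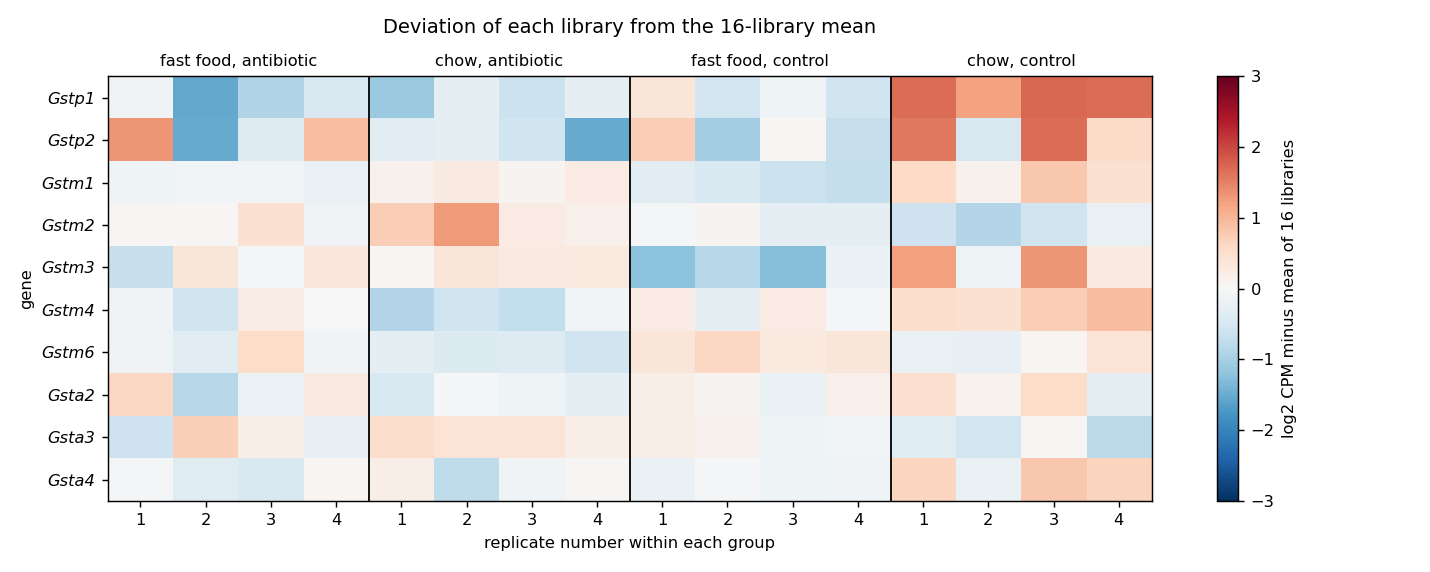
Deviation of log2 CPM (prior count 2) from the mean of the 16 libraries, one row per gene and one column per library, grouped from fast food-antibiotic on the left to chow-control on the right, red for higher and blue for lower. Gstp1 is red in the 4 chow-control libraries and in fast food-control replicate 1, while Gstm2 is blue in all 4 chow-control libraries.

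The third comparison asks what fast food did in mice with antibiotic water, and here none of the 10 genes was called by edgeR, although 13.7% of all genes tested were. At an unadjusted p under 0.05 there were 4 of 10 (Gstm1, Gstm2, Gstm4 and Gstm6), against 30.4% of all genes, and DESeq2 called 0. Gstp1 stood at 231, 85.4, 132 and 182 CPM in fast food-antibiotic libraries, across the chow-antibiotic range of 114 to 202 CPM (log2 fold change -0.10 ± 0.28, edgeR adjusted p = 0.839). Gstp2 stood at 0.796, 0, 0.155 and 0.566 CPM in fast food-antibiotic libraries, where the count of 0 allows up to 0.215 CPM.

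Gstm1 stood at 274, 284, 283 and 257 CPM in fast food-antibiotic libraries and 317 to 361 CPM in chow-antibiotic libraries, and was the 1 gene of the 10 whose groups did not overlap, against 14.5% of all genes. Its fold change was small and missed the threshold (-0.31 ± 0.13 on the log2 scale, edgeR adjusted p = 0.116). Gstm2 (15.1 to 22.2 CPM in fast food-antibiotic, 17.9 to 39.2 CPM in chow-antibiotic), Gstm4 (9.83 to 17.6 and 8.17 to 14.1 CPM) and Gstm6 (14.6 to 26.8 and 11.9 to 15.1 CPM) overlapped, at -0.55 ± 0.22, 0.49 ± 0.20 and 0.47 ± 0.18 on the log2 scale. Gstm3 had 1.29 to 2.80 CPM in fast food-antibiotic and 2.22 to 2.80 CPM in chow-antibiotic libraries.

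Gsta3 was scattered in the fast food-antibiotic group, at 462, 1162, 802 and 602 CPM, around the chow-antibiotic range of 818 to 1029 CPM. Fast food-antibiotic replicate 2 held the highest Gsta3 and the lowest Gstp1 of all 16 libraries. Gsta4 (23.8 to 34.1 and 19.4 to 37.3 CPM) and Gsta2 (3.45 to 9.85 and 4.61 to 6.13 CPM) overlapped widely between fast food-antibiotic and chow-antibiotic. Without fast food-antibiotic replicate 2, Gstm4 (0.62), Gstm6 (0.57) and Gsta3 (-0.59) were called on the log2 scale (edgeR adjusted p = 0.0247, 0.0332 and 0.0325), and without chow-antibiotic replicate 4, Gstm2 (-0.71) and Gstm4 (0.63) were (adjusted p 0.0411 and 0.0426). Without all 3 acute phase libraries 3 were called, Gstm2, Gstm4 and Gsta3. In high-share libraries alone none of the 10 was called by edgeR and 1 gene of all those tested was. Hepatocyte markers fell in this comparison in 4 of 8 cases, beside 13.7% of all genes called. Their summed levels were 111000 to 185100 CPM in fast food-antibiotic and 185000 to 249100 CPM in chow-antibiotic libraries. Alb averaged 76140 ± 24110 and 142800 ± 26370 CPM in these groups. The part of these markers was not tested.

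The fourth comparison, antibiotics with fast food, again called none of the 10 by edgeR, against 5.99% of all genes tested. At an unadjusted p under 0.05 there were 2 (Gstm1 and Gstm3), against 26% of all genes, and DESeq2 called Gstm1. Gstm1 ran from 257 to 284 CPM in fast food-antibiotic and 183 to 236 CPM in fast food-control libraries, the 1 gene of the 10 without overlap, against 18.4% of all genes (log2 fold change 0.41 ± 0.13, edgeR adjusted p = 0.0661, DESeq2 adjusted p = 0.0358). Gstm3 stood at 1.29, 2.80, 2.11 and 2.74 CPM in fast food-antibiotic and 0.816 to 1.88 CPM in fast food-control libraries, overlapping (0.93 ± 0.37 on the log2 scale, edgeR adjusted p = 0.121). Gstp1 (85.4 to 231 and 165 to 318 CPM in these groups) overlapped at -0.48 ± 0.28. Gstm1 was called by edgeR without chow-control replicate 2 or 3 (adjusted p 0.0409 and 0.0471), and Gstm6 without fast food-antibiotic replicate 3 (-0.59, adjusted p 0.0371).

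Kupffer cell markers fell in this comparison too, 6 of 8, with summed levels of 139 to 216 CPM in fast food-antibiotic and 273 to 381 CPM in fast food-control libraries, and their part was not tested. No fast food-control library had a high rRNA-like share and only 1 fast food-antibiotic library had a low one, so a within-share value could not be had, and share and group cannot be fully told apart here.

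The interaction asks whether the meal effect differed between the waters, and 3 of the 10 passed, Gstp1, Gstm1 and Gstm4, against 3.94% of all genes tested and 2.36% called higher. All 3 were positive, meaning that the fast food minus chow difference was higher in antibiotic than in control water. For Gstp1 the meal effects were -0.10 in antibiotic and -1.76 in control water, a difference of 1.66 ± 0.40 on the log2 scale (edgeR adjusted p = 0.0322). For Gstm1 they were -0.31 in antibiotic and -1.06 in control water, a difference of 0.75 ± 0.18 (adjusted p = 0.0308).

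For Gstm4, whose meal effect passed in neither water, the effects were 0.49 in antibiotic and -0.63 in control water, a difference of 1.12 ± 0.27 (edgeR adjusted p = 0.0312). Of all 10 genes 8 had a positive difference and 2, Gstm2 (-0.98 ± 0.31) and Gsta3 (-0.72 ± 0.32), a negative one. Summed by cluster, the difference was 1.66 ± 0.39 for Gstp (edgeR adjusted p = 0.0285) and 0.58 ± 0.17 for Gstm (0.0672). The median of the 10 genes was 0.68 on the log2 scale, beside 0.06 over all genes tested. The 3 adjusted p-values lay close under the threshold. Each rose above it in most fits that left out 1 library, 11 of 16 for Gstp1, 10 of 16 for Gstm1 and 11 of 16 for Gstm4, to at most 0.0759, with log2 differences of 1.42 to 1.89, 0.63 to 0.86 and 0.98 to 1.25. Gsta3 was called without fast food-antibiotic replicate 2 (-1.02, adjusted p 0.0173) and Gstm2 without chow-antibiotic replicate 4 (-1.16, 0.0330) or chow-control replicate 4 (-1.17, 0.0488). Without the 3 acute phase libraries 8 of the 10 were called, all but Gstm6 and Gsta2, while adding the rRNA-like share to the fit left none called by edgeR.

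The make-up of the summed level shows the same data as shares. Gstp1 made up 13.3% of the summed CPM of the 10 genes in fast food-antibiotic, 11.1% in chow-antibiotic, 17.4% in fast food-control and 40.8% in chow-control libraries, as means over 4 libraries. Gsta3 made up 57.5%, 60.9%, 58.4% and 29.6% in the same order, and Gstm1 22.0%, 22.2%, 16.7% and 23.5%. The summed level itself was 1278 ± 242 CPM in fast food-antibiotic, 1532 ± 63.7 in chow-antibiotic, 1243 ± 148 in fast food-control and 1830 ± 308 CPM in chow-control libraries (SD, n = 4 each).

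**Figure D5:**
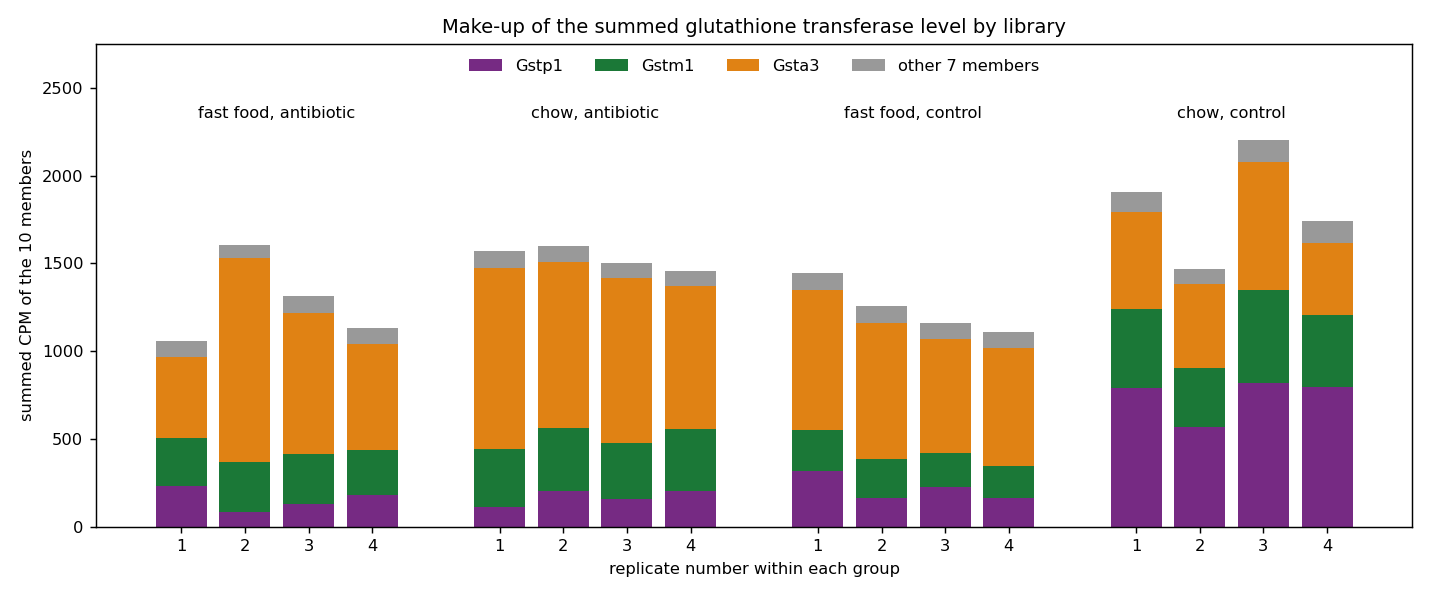
Summed CPM of the 10 genes (vertical axis, from 0) in each library, split into Gstp1, Gstm1, Gsta3 and the other 7 genes. Gstp1 is the largest of the drawn segments in the 4 chow-control libraries, where it averages 40.8% of the sum, and Gsta3 in the other 12.

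The genes did not vary as 1 block across the 16 libraries. Given as a description over libraries that share their groups, Pearson's r of log2 CPM was 0.84 for Gstp1 with Gstm4, 0.82 for Gstm1 with Gstm3, -0.69 for Gstp1 with Gsta3 and -0.63 for Gstp1 with Gstm2. On deviations from the group means it was 0.67, 0.42, -0.55 and 0.05 for the same pairs, so that the last of them was held by the differences between groups. For Gstp1 and Gstp2 it was 0.66 over libraries and 0.74 on deviations, for a pair whose reads can be shared.

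Outside the family, the gene with the pattern most like Gstp1 over the 16 libraries was Ftl1, the ferritin light chain (r = 0.95, and 0.93 on deviations from the group means), among 10419 genes ranked. Other genes of close pattern were Ephx1, the microsomal epoxide hydrolase (0.93), Lgals9, a galectin (0.92), and Grina (0.91). Genes most like Gstm3 were less close: Abca7, a lipid transporter (0.79), Snrnp200, a spliceosome helicase (0.76), Bud23 (0.75), Ppp1r7 (0.75) and Sri (0.75). On deviations from the group means r was 0.595 for Ephx1, 0.68 for Lgals9 and 0.59 for Grina with Gstp1, and 0.56, 0.22, 0.40, 0.20 and 0.285 for the 5 genes with Gstm3, so most of the likeness to Gstm3 lay between groups.

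Of 23 other listed glutathione transferases and relatives, 15 were tested. None was called for the meal in control water by edgeR, beside 0.577% of all genes, or by DESeq2, with 6 at an unadjusted p under 0.05. For antibiotics with chow 3 rose and 3 fell, beside 23.8% of all genes, with a median of 0.22 on the log2 scale. The theta class gene Gstt3 averaged 208 ± 64.5 CPM in chow-antibiotic and 48.5 ± 8.96 CPM in chow-control libraries (SD, n = 4 each; log2 fold change 2.10 ± 0.30, edgeR adjusted p = 0.000286). The microsomal transferase Mgst1 (-0.55 ± 0.15), the theta gene Gstt2 (-0.86 ± 0.25) and the chloride channel relative Clic1 (-0.68 ± 0.20) fell.

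Gstt3 averaged 64.9 ± 33.2 CPM in fast food-antibiotic and 208 ± 64.5 CPM in chow-antibiotic libraries (log2 fold change -1.68 ± 0.29, edgeR adjusted p = 0.00432). It was the 1 gene of the 15 called in that comparison, beside 13.7% of all genes. Its interaction was -2.07 ± 0.41 (edgeR adjusted p = 0.0163), of opposite sign to that of Gstp1, and Gstt1 (-0.88 ± 0.23) was called in the same direction as Gstt3. The interaction called 2 of the 15, beside 3.94% of all genes. With fast food, Mgst1 was the 1 gene of the 15 called for antibiotics, beside 5.99% of all genes. It stood at 2204 ± 403 CPM in fast food-antibiotic and 3442 ± 416 CPM in fast food-control libraries (-0.64 ± 0.15, edgeR adjusted p = 0.0254).

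Of 17 tested genes that make and recycle glutathione, 2 rose and 4 fell with antibiotics in chow-fed mice, where 23.8% of all genes were called. Gclc, the catalytic subunit of the rate-limiting enzyme of glutathione synthesis, averaged 101 ± 9.14 CPM in chow-antibiotic and 243 ± 50.2 CPM in chow-control libraries (-1.27 ± 0.16, edgeR adjusted p = 7.9e-05). The peroxidase Gpx1 (-1.04 ± 0.17) and the oxoprolinase Oplah (-0.88 ± 0.16) fell as well, and the secreted peroxidase Gpx3 rose by 1.99 ± 0.25.

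With fast food, antibiotics lowered 2 of the 17, Gclc (-0.95 ± 0.16) and Gpx1 (-0.74 ± 0.17), beside 5.99% of all genes. The meal with antibiotic water raised Oplah (0.62 ± 0.16) and lowered Gpx3 (-1.50 ± 0.25), beside 13.7% of all genes. Gpx3 was the 1 gene called for the interaction, beside 3.94% of all genes. The meal with control water called none by edgeR, beside 0.577% of all genes, or by DESeq2, with 2 at an unadjusted p under 0.05.

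Of 20 tested genes that process or export glutathione conjugates, 2 rose and 5 fell with antibiotics in chow-fed mice, and 4 rose and none fell with fast food in antibiotic water, beside 23.8% and 13.7% of all genes called in these comparisons. The N-acetyltransferase family gene Nat8f2 averaged 193 ± 37.0 CPM in chow-antibiotic and 842 ± 104 CPM in chow-control libraries (-2.12 ± 0.21, edgeR adjusted p = 1.5e-05), and 647.5 ± 240 CPM in fast food-antibiotic libraries, higher than after chow with antibiotics (1.75 ± 0.21). The aminoacylase Acy3 (-1.80 ± 0.24 and 1.15 ± 0.24) and the aminopeptidase Anpep (-1.05 ± 0.16 and 0.69 ± 0.16) gave values of the same signs in these comparisons, which share the chow-antibiotic libraries. Fast food in control water called none by edgeR, beside 0.577% of all genes, or by DESeq2, with 5 at an unadjusted p under 0.05. Antibiotics with fast food lowered 1 by edgeR, Abcg2, beside 5.99% of all genes. The interaction called 2 higher by edgeR, Nat8f2 and Anpep, beside 3.94% of all genes. DESeq2 called 6 for antibiotics with fast food and 3 for the interaction.

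Of 24 tested NRF2 targets outside the family, fast food in control water lowered 1, Ephx1 (-1.09 ± 0.20), and raised none, beside 0.577% of all genes called. The median was -0.24 on the log2 scale, beside -0.02 over all genes. Antibiotics with chow raised 4 and lowered 7, beside 23.8% of all genes called, Gclc, Cat, Ephx1 and Blvrb first by p. Fast food with antibiotic water raised 1 (Cat) and lowered 4 (Cbr1, Hmox1, Tkt and Nqo1), beside 13.7% of all genes. Antibiotics with fast food lowered 1 (Gclc), beside 5.99% of all genes. The interaction called none by edgeR, beside 3.94% of all genes, and 1 by DESeq2, with 3 at an unadjusted p under 0.05.

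Among 15 tested enzymes of aldehydes and epoxides, substrates near those of the transferases, 1 rose and 5 fell for antibiotics with chow, beside 23.8% of all genes called, Aldh3a2 (-2.50 ± 0.30) and Glo1 (-0.85 ± 0.13) first by p. For antibiotics with fast food none rose and 4 fell, beside 5.99% of all genes called. The meal in antibiotic water raised 2 and lowered 2, beside 13.7% of all genes, and that in control water lowered Ephx1, beside 0.577%. The interaction called none by edgeR, beside 3.94% of all genes, and 3 by DESeq2, with 5 at an unadjusted p under 0.05.

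Of 20 tested targets of the nuclear receptors CAR and PXR, 7 rose and 4 fell for antibiotics with chow, beside 23.8% of all genes called, Sult1d1 (2.02 ± 0.26) and Por (1.03 ± 0.15) first by p. For the meal in antibiotic water 1 rose and 3 fell, beside 13.7% of all genes. In control water the meal raised 1 (Cyp2c54) and lowered none, beside 0.577% of all genes. For antibiotics with fast food 1 rose and 1 fell, beside 5.99% of all genes, and 4 were called lower for the interaction, beside 3.94%.

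Of 19 tested regulators of the transferases, 2 rose and 3 fell for antibiotics with chow, a share near the 23.8% of all genes. Ppara, the fatty acid receptor, averaged 61.6 ± 23.6 CPM in chow-antibiotic and 186 ± 21.6 CPM in chow-control libraries (-1.59 ± 0.28, edgeR adjusted p = 0.00107), and it rose by 1.57 ± 0.28 with fast food in antibiotic water. Ppara was also the 1 regulator called for the interaction, beside 3.94% of all genes. Neither other comparison called a regulator by edgeR; DESeq2 called 1 in each, with 2 at an unadjusted p under 0.05 for the meal in control water and 3 for antibiotics with fast food. Nfe2l2, which encodes NRF2, was chosen after its values were seen and averaged 54.0 ± 6.50 CPM in fast food-antibiotic, 51.1 ± 6.39 in chow-antibiotic, 58.4 ± 6.80 in fast food-control and 60.2 ± 8.45 CPM in chow-control libraries.

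Since Gstp1 is known to differ between the sexes, sex-biased liver genes were read beside it. Of 15 tested male-biased genes 3 rose and 4 fell for antibiotics with chow, beside 23.8% of all genes called. Their median was -0.95 on the log2 scale, beside -0.01 over all genes. For antibiotics with fast food 2 fell, beside 5.99% of all genes called, with a median of -1.08, beside 0.02 over all genes. For the meal, 3 fell in antibiotic water, beside 13.7% of all genes called. In control water edgeR called none, beside 0.577% of all genes (5 at an unadjusted p under 0.05, 3 by DESeq2). The median there was 0.28, beside -0.02 over all genes. The interaction called 1 higher and 2 lower by edgeR, beside 3.94% of all genes. Of 7 tested female-biased genes 3 rose and 2 fell for antibiotics with chow, and 2 rose and none fell for antibiotics with fast food. For the meal, 2 of the 7 rose and 1 fell in antibiotic water, and none was called in control water by edgeR or DESeq2 (3 at an unadjusted p under 0.05). The interaction called 1 lower by edgeR. The shares of all genes called were those given for the male-biased genes. Their part in the transferase results was not tested.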

How the data were processed

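Poly(A) RNA of 16 mouse liver libraries, 4 per group, was read as single reads of 50 bases. The deposited table holds unnormalized read counts for each gene. The submitters' processing notes list STAR and HTSeq, beside FastQC, cutadapt, edgeR and DESeq2, and build GRCm38.p6. Their versions, the strand setting and the rule for multiply matching reads are not known from these sources. The 13 mitochondrially encoded genes had counts of 0 throughout.

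From the counts, edgeR 4.0.16 in R 4.3.3 (filterByExpr with a minimum count of 10, TMM factors, robust quasi-likelihood fit of 4 group means) gave two-sided contrasts. Benjamini-Hochberg adjustment ran over 13180 genes with a threshold of 0.05, and the SE is the absolute log2 fold change over the square root of F. Floors (3 counts) cover counting error only. In simulated counts for the meal in control water, over 13003 genes, 80% of 2-fold and 98% of 4-fold changes were recovered, with 13 false among 191 calls. The changed genes had a mean of at least 2 CPM, which Gstp2 (0.339 CPM) did not reach. Differences between libraries in rRNA-like share or acute phase transcripts were not simulated as such, so recovery in these data may be lower.

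Uniqueness was the share of 50-base windows found in no transcript of another gene (GENCODE M21). The members and lists were chosen with earlier results of these data known. Named genes are the 10 members, up to 4 called genes of lowest p per list, and the 5 genes outside the family, with mean log2 CPM of at least 1, of highest correlation with Gstp1 and with Gstm3; some genes this rule names are not reported here. Replicate numbers did not pair the samples: same-numbered libraries of 2 groups had correlations of -0.222 to 0.359, with 3 of 24 over 0.1. Alternatives were DESeq2 1.42.0, RLE factors, other filters, fits to 2 groups, a replicate block, the rRNA-like share (Lars2, Mir6236, Gm20594, Mir6240), leaving out libraries and summing clusters.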

Additional observations from a re-analysis of the deposited data

Results flagged for a closer look

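Gstp1 in chow-control replicate 2 stood at 571 CPM, far below the other three libraries of its group at 789 to 819 CPM, relative to the range of the group. It was the 1 such sample in 40 sets of 4 libraries, where chance gives about 1 in 20. The meal effect on Gstp1 differed between the waters by 1.66 on the log2 scale (edgeR adjusted p = 0.0322), that on Gstm1 by 0.75 (adjusted p = 0.0308) and that on Gstm4 by 1.12 (adjusted p = 0.0312), each by a test of the interaction.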

How the results depend on the processing

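Of 480 recomputed values of single genes under alternatives other than leaving out 1 library, 431 kept direction and side of the threshold, 18 lost the call, 23 gained it and 8 reversed. The cause of the changes was not tested. The 8 reversals, none of them called, were Gstp1 (0.17) and Gsta4 (0.0063) for fast food in antibiotic water and Gsta2 (0.17) and Gsta3 (-0.24) for antibiotics with fast food, all without the 3 libraries high in acute phase transcripts, Gsta4 for fast food in antibiotic water with the rRNA-like split as a term (0.014) and within high-share libraries (0.20), and Gsta4 for antibiotics with fast food with the share as a covariate (0.060) or the split (0.12).

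For fast food in control water 76 genes were called, and 305 by DESeq2, 365 in a fit to the 2 groups, 22 with the share as a covariate, 17 with the split, 154 within low-share libraries and 160 without the 3 libraries. The 3 members called became 1 with the split and 5 within low-share libraries or without the 3 libraries. For fast food in antibiotic water 1800 genes became 229 in the fit to 2 groups, 1 within high-share libraries and 3206 without the 3 libraries, and the 0 members became 1 with the covariate or the split (Gstm6) and 3 without the 3 libraries. For antibiotics with chow 3138 genes became 3, and 5 members 0, within high-share libraries. For antibiotics with fast food 790 genes became 1547 by DESeq2 and 0 with the covariate or the split (edgeR), and 0 members became 1 by DESeq2. For the interaction 519 genes became 1120 by DESeq2, 143 with the covariate, 262 with the split and 1851 without the 3 libraries, and 3 members became 0 with the covariate and 8 without the 3 libraries.

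With the replicate number as a block, 1 of 10 members was called for the interaction in place of 3, Gstm3 lost its call for the meal in control water (adjusted p = 0.0756) and Gstp2 gained one for antibiotics with chow (0.0385). The numbers mark no pairing in the labels, and 1 of 16 libraries correlated best with its own number.

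Leaving out each library in turn gave 11 to 155 genes and 1 to 3 members for fast food in control water, 697 to 3042 and 0 to 3 for fast food in antibiotic water, 2301 to 3662 and 3 to 7 for antibiotics with chow, 78 to 1102 and 0 to 1 for antibiotics with fast food, and 164 to 1494 and 0 to 4 for the interaction. Signs that turned in these fits were uncalled: Gstp1 (-0.34 to 0.098) and Gsta4 (-0.23 to 0.036) for fast food in antibiotic water; Gstp2 (-0.032 to 1.28), Gsta2 (-0.27 to 0.19), Gsta3 (-0.23 to 0.24) and Gsta4 (-0.14 to 0.029) for antibiotics with fast food; and Gstm6 (-0.14 to 0.18) for the interaction. Depth limits Gstp2 (0 to 21 counts) and Gstm3 (13 to 113 counts).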

Other observations

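In the fast food-antibiotic group the coefficient of variation was 40.1% for Gsta3, 39.8% for Gstp1 and 41.5% for Gsta2, against 4.54% for Gstm1. In chow-antibiotic, fast food-control and chow-control libraries that of Gsta3 was 9.33%, 10.2% and 24.9%, and that of Gstp1 24.7%, 32.8% and 15.6%. Gstp3, another pi class gene not among the 10, had 21 to 135 counts per library. Gsta1, which shares windows with Gsta2, had 0 to 11 counts. The members together took 0.109% to 0.243% of all counts in a library.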
